A study of Mus musculus with 12 samples.

Results

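The respiratory chain genes described here are the 77 genes whose symbol begins with Nduf, Uqcr, Cox4, Cox5, Cox6, Cox7, Cox8, Atp5 or Sdh and that have at least 5 CpGs in the deposited table of DNA methylation by sample. They hold 1937 of its 760348 CpGs and are 77 of the 16816 genes that reach 5 CpGs. A further 11 symbols with 24 CpGs between them fit the name but have too few CpGs: Ndufa7 has 4, just under the limit, while Ndufb3, Uqcr10 and Uqcrh, just above it, have 6 each. The median gene has 23 CpGs, and Cox7c has the most with 144. CpGs within 1000 bp of the nearest transcription start site are called start-site CpGs and number 1052 over these genes, and the other 885 lie outside start sites. Among the start-site CpGs, the nearest start site is that of the named gene at 1015, that of another gene at 36, and of no listed gene at 1. Among those outside, the nearest start site belongs to another gene at 120 and to no listed gene at 9.

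The chain sits in the inner mitochondrial membrane. Complex I (NADH dehydrogenase, the Nduf genes) and complex II (succinate dehydrogenase, the Sdh genes) pass electrons to ubiquinone, complex III (the Uqcr genes) passes them on to cytochrome c, and complex IV (cytochrome c oxidase, the Cox genes) hands them to oxygen. The proton gradient built on the way drives the ATP synthase (the Atp5 genes). Antibody-secreting plasma cells need much ATP, and their precursors are known to raise oxidative phosphorylation as they differentiate. Methylation of cytosine in CpG pairs is copied at each replication by a maintenance enzyme, is rare at CpG-rich promoters of housekeeping genes, and is high in most of the remaining genome.

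The study followed B cells through their divisions towards plasma cells. Naive splenic B cells, sorted as B220+ CD43-, were labelled with the division dyes CFSE or CTV, moved into uMT host mice, which lack mature B cells of their own, and stimulated in the host with LPS (lipopolysaccharide, a bacterial activator of B cells). The transferred cells were sorted 3 days later from the spleen by the number of divisions: Div0, Div1, Div3 and Div5, and, among cells that had divided at least 8 times, a CD138- fraction (Div8neg) and a fraction carrying the plasma cell marker CD138 (Div8pos). All fractions share the transfer, the dye and the LPS, so Div0 cells are undivided cells of an LPS-treated host and not untreated cells. The labels give female mice, 8 weeks of age and the strain B6.SJL-Ptprca Pepcb/BoyJ, whereas the series' own description gives C57/BL6J donors, and it is not said which animals each name covers. Each fraction came from the same 2 hosts, 196 and 197, which gives 12 libraries and n = 2 per fraction. The p-values rest on the spread between these 2 hosts, pooled over the fractions and moderated over all genes or CpGs. Those of single CpGs rest on the read counts as well. The libraries were reduced representation bisulfite libraries, which read methylation in fragments cut by MspI and TaqI. They held 17969105 to 56775157 reads over the CpGs of the table, with a median coverage of 20 to 66 reads per CpG (21 to 67 over the respiratory chain CpGs), and host 197 was the deeper one in every fraction. A bulk level is an average over the sorted cells, so all cells with partly lost methylation and some cells with fully lost methylation cannot be told apart.

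The promoters of these genes were CpG-rich and almost free of methylation in all 6 fractions. RefSeq promoter windows (build GRCm38.p6, 250 bases before to 50 after the start) were found for 65 of the 77 genes. Where a gene had several windows, the highest CpG count and a motif in any window were taken. The median gene held 19 CpGs (8 to 44), against 8 over all 27025 genes of that table. At least 10 CpGs were held by 64 of 65 genes (98.5%), against 45.8% of all. Binding motifs of NRF1 and of ETS factors such as GABP, known regulators of respiratory chain genes, were searched on both strands. The NRF1 motif, GCGCA, any base and GCGC, was present in 17 of 65 genes (26.2%). Of all genes 5.19% had it, and of the 12388 genes with at least 10 CpGs 11.1%. The ETS motif, CCGGAAG, was present in 16 genes (24.6%), against 9.93% of all and 18.5% of these CpG-rich genes. The motifs do not overlap by their letters, and a match is a string of bases, not a measured site of binding.

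Shown next, 5′ to 3′, are the 250 bases before the start of Atp5g2 (chr15:102671048-102671297, minus strand), Atp5k (chr5:108434400-108434649, minus strand) and Ndufaf1 (chr2:119662835-119663084, minus strand), all in GRCm38.p6 coordinates, because their measured CpGs are near to 0 while CpGs further out in the same genes lost methylation, as given below. Capitals mark the CpGs measured in all 12 libraries, which were placed by their spacing since the methylation files use the build mm9.
Atp5g2: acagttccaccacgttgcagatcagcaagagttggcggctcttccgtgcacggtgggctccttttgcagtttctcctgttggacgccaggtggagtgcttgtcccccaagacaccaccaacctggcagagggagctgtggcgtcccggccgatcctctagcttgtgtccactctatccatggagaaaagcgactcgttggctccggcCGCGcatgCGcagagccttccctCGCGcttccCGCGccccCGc
Atp5k: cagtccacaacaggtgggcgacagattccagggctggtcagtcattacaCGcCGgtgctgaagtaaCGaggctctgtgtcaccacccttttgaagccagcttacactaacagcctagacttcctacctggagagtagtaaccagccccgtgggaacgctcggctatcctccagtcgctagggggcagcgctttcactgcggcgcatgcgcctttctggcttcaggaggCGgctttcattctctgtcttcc
Ndufaf1: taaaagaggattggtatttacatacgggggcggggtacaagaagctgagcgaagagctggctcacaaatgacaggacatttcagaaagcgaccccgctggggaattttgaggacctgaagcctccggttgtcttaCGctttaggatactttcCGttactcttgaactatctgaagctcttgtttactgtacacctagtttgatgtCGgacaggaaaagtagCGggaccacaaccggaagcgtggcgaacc

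Atp5g2 encodes a copy of the membrane ring subunit c of the ATP synthase. In its window 8 of 19 CpGs were measured. With the reads of both hosts pooled, as for all levels in this paragraph, no fraction exceeded 8.82% methylation at any of them. Its NRF1 motif, at bases 209 to 218, reads the same on both strands and contains 2 of the measured CpGs, which lay between 0 and 8.82%. Atp5k encodes the small subunit e of the same enzyme, and 4 of its 13 CpGs were measured, none above 5.41% in any fraction. Its NRF1 motif lies at bases 201 to 210, where no CpG was measured. Ndufaf1 encodes an assembly factor of complex I, and its 4 measured CpGs of 13 stayed at or under 4.76%. Its ETS motif lies at bases 233 to 239, again with no measured CpG.

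Of the 77 genes, 68 had at least 3 start-site CpGs. The mean level of these CpGs was under 5% in every fraction in 52 of the 68 (76.5%), against 55.3% of all 12366 genes tested. The median gene was at 1.71% in Div8pos cells and at 1.98% in Div0 cells, against 2.82% and 3.34% over all genes. No member passed the gene test at start sites in any of the 6 comparisons (limma, Benjamini-Hochberg adjusted p under 0.05 and a difference of at least 10 percentage points; at an unadjusted p under 0.05, 13 of 68 genes for Div8pos against Div0 and 0 to 7 for the other 5 comparisons). Over all genes, 3.34% passed as lower for Div8pos against Div0, 0.469% for Div8neg against Div0 and 0.437% for Div8pos against Div8neg, while 0.0162, 0.00809 and 0.00809% passed as higher. For Div5 against Div0 0.0647% passed as lower, and for Div3 and Div1 none did.

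Only 3 members (4.41%, against 18.5% of all genes) had a start-site level of at least 20% in Div0 cells: Ndufb2, Ndufaf1 and Atp5b. Ndufb2, an accessory subunit of complex I, averaged 30.4 and 30.1% in the Div8pos libraries of hosts 196 and 197, against 31.8 and 32.5% in the Div0 libraries. The groups did not overlap, but the difference of -1.90 points (SE 0.573) did not pass the test (limma, adjusted p = 0.0777). Ndufaf1 averaged 19.4 and 20.1% in Div8pos cells, against 27.5 and 28.9% in Div0 cells. Both Div8pos libraries were under both Div0 libraries, and the difference of -8.44 points (SE 1.63, limma adjusted p = 0.0130) was under the 10 points that a call required. Atp5b, the catalytic beta subunit of the ATP synthase, averaged 18.7 and 19.1% in Div8pos cells, against 24.3 and 22.5% in Div0 cells, again without overlap and with a difference of -4.52 points (SE 0.964, limma adjusted p = 0.0198). With no limit on size, 4 members passed at start sites for Div8pos against Div0 (5.88%, against 10.2% of all genes): Ndufaf1, Atp5b, Ndufs6 and Ndufaf4. At start sites both Div8pos libraries were under both Div0 libraries in 21 of the 68 genes. Over the whole table such genes were not counted.

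Within the start-site class, the methylated CpGs lay mostly at the outer edge. At 1014 of the 1052 start-site CpGs the Div0 level was under 20%, so that a call of at least 20 points lower was not possible there. The other 38 CpGs lay in 16 genes, 30 of them more than 500 bp from the start site, and 9 were called lower (23.7%, against 10% of all start-site CpGs at 20% or more). A CpG was called by a quasi-binomial test of its methylated and unmethylated reads (Benjamini-Hochberg adjusted p under 0.05 over all CpGs, and a difference of at least 20 points). All 9 lay 587 to 925 bp from the start site, 2 of them in Atp5b and 1 each in Atp5g1, Atp5h, Ndufs6, Ndufaf1, Ndufaf4, Ndufaf5 and Ndufc1. At the Ndufaf1 CpG at chr2:119487668 (mm9, intron), methylation was 60 and 67.6% in the Div8pos libraries, against 94.4 and 88.0% in the Div0 libraries, a difference of -27.4 points (quasi-binomial adjusted p = 0.0249). At the Atp5b CpG at chr10:127523268, 925 bp from a start site that is another gene's, it was 52.9 and 72.0% in Div8pos cells, against 100 and 98.6% in Div0 cells, a difference of -36.8 points. Neither CpG's groups overlapped. In Ndufb2, 8 start-site CpGs at 83.8 to 100% in Div0 cells gave no call. Of all 1052 start-site CpGs, 9 (0.856%) were lower in Div8pos than in Div0 cells, against 1.09% of all start-site CpGs (0.015% were higher), and without the host 197 library of either fraction 2 were.

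**Figure D1:**
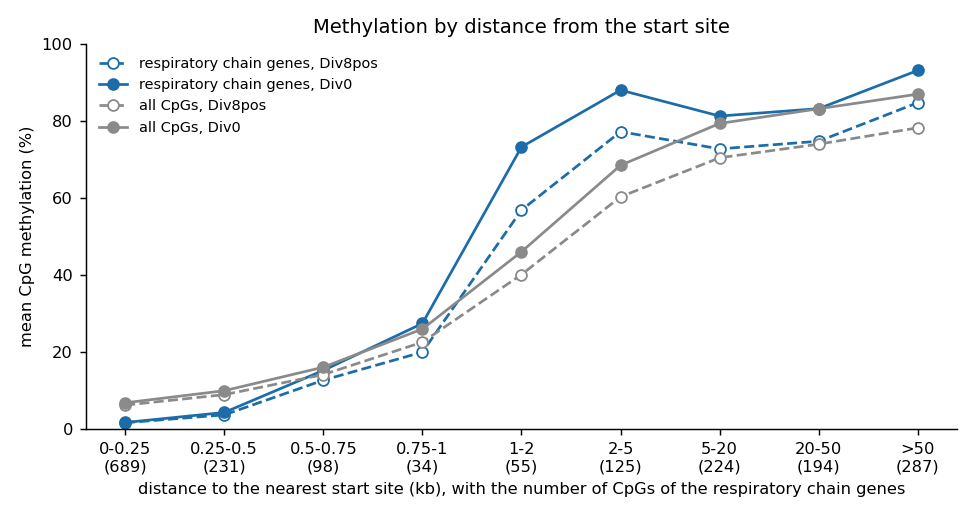
Mean methylation in percent (vertical axis) of the respiratory chain CpGs (blue) and of all CpGs of the table (grey) by distance to the nearest start site in kb (horizontal axis, in classes, with the number of respiratory chain CpGs), in Div8pos cells (open symbols, dashed) and Div0 cells (filled symbols, solid). Within 0.25 kb the members' mean was 1.69% in Div8pos and 1.76% in Div0 cells, between 1 and 2 kb 56.9% in Div8pos and 73.3% in Div0 cells, and beyond 50 kb 84.8% in Div8pos and 93.1% in Div0 cells.

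Outside start sites the members were highly methylated and lost methylation in the cells that had divided at least 8 times. Averaged over the 885 CpGs, the level was 86.0% in Div0, 85.6% in Div1, 85.4% in Div3, 84.9% in Div5, 81.7% in Div8neg and 76.7% in Div8pos cells, with an SD between the 2 hosts of 0.121 in Div0, 0.399 in Div8neg and 0.396 points in Div8pos cells. The Div8pos libraries stood at 77.0 and 76.5% (hosts 196 and 197), the Div8neg libraries at 82.0 and 81.4% and the Div0 libraries at 86.1 and 85.9%. No library of one of these 3 fractions overlapped with another fraction. The difference was -9.27 points for Div8pos against Div0 (SD 0.276 over the hosts), -4.30 for Div8neg against Div0 (SD 0.278) and -4.97 for Div8pos against Div8neg (SD 0.00291). Over all 506619 CpGs outside start sites these differences were -8.61, -4.09 and -4.52 points, close to those of the members. A comparison of 2 with 2 libraries cannot give an exact permutation p under 0.333. At start sites the means were 3.76% in Div8pos cells and 4.42% in Div0 cells, with an SD of 0.326 and 0.567 points.

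**Figure D2:**
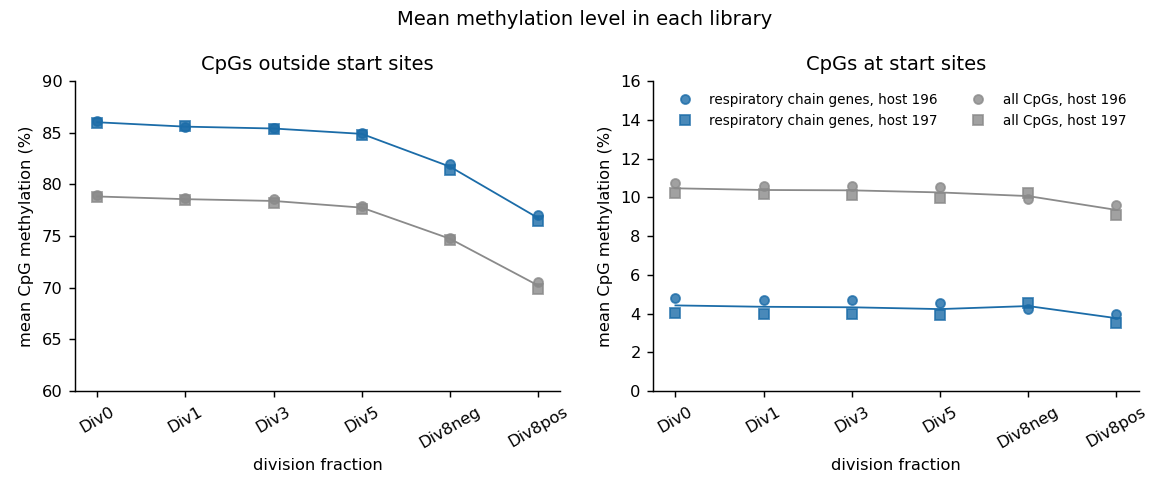
Mean methylation in percent (vertical axes, of which the left one starts at 60%) of the respiratory chain CpGs (blue) and of all CpGs (grey) outside start sites (left) and at start sites (right) by fraction (horizontal axes), with circles for host 196, squares for host 197 and lines through the means of both. Outside start sites the members stood at 77.0 and 76.5% in the Div8pos libraries, against 86.1 and 85.9% in the Div0 libraries.

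Of the 77 genes, 53 had at least 3 CpGs outside start sites. Between Div8pos and Div0 cells, 22 of the 53 were lower and none was higher (limma; 41.5% of members, against 37.9% lower and 0% higher of all 15153 genes tested). A lower level was measured in 52 of the 53, with a median difference of -8.77 points, against -8.89 over all genes, of which the middle 90% lay between -17.1 and -2.74. With no limit on size, 46 of the 53 passed as lower, against 93.2% of all genes. The count and the median of the members were thus near those of all genes. The 21 called genes other than Ndufb10 differed by -20.6 to -10.0 points, the 31 genes not called by -9.71 to 1.03 points. The Div8pos and Div0 libraries did not overlap in 48 of the 53 genes tested, the 22 called ones included. Such genes were not counted over the whole table, where 93.2% passed as lower with no limit on size. Leaving out 1 of the 4 libraries at a time, 11 of the 22 calls held each time, among them Ndufb10, Uqcrfs1, Cox5a, Atp5g2, Ndufs8, Atp5a1, Uqcrc1, Ndufb7, Sdhb and Ndufa10.

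In complex I, the core subunit Ndufs8, which carries iron-sulphur clusters, averaged 76.4 and 76.9% over 6 CpGs in the Div8pos libraries, against 94.3 and 95.4% in the Div0 libraries, a difference of -18.2 points (SE 1.52, limma adjusted p = 6.98e-06). The Ndufs8 groups did not overlap. Of 18 accessory subunits 6 were lower, against 37.9% of all genes, and the median difference of the 18 was -8.76 points, against -8.89 over all genes. The counts by role, here and below, are of few genes and were not tested against the share of all genes. Ndufb10 fell the most and is described below. Ndufb7 averaged 67.8 and 69.0% in Div8pos cells, against 83.3 and 81.5% in Div0 cells. Ndufa10 averaged 78.6 and 78.2% over 38 CpGs in Div8pos cells, against 88.7 and 90.9% in Div0 cells, a difference of -11.4 points (SE 1.18). Ndufa11, Ndufs6 and Ndufb4 differed by -11.5, -10.9 and -10.0 points, and each of these calls was lost without 1 library (Div0 of host 197 or Div8pos of host 197 for Ndufa11 and Ndufb4, Div8pos of host 196 for Ndufs6). Ndufa11 rested on 3 CpGs, 6202 to 6279 bp from a nearest start site that was not its own.

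Ndufa4 had the most CpGs of the accessory subunits and is now also counted as a subunit of complex IV. Its 60 CpGs outside start sites all lie far out, 74203 to 458849 bp from the nearest start site. Over these, Ndufa4 averaged 86.9 and 87.9% in Div8pos cells, against 96.4 and 95.9% in Div0 cells. Its difference of -8.75 points (SE 0.861, limma adjusted p = 1.45e-05) was under the size limit. Some accessory subunits were low throughout or overlapped between the groups. Ndufa4l2, a paralogue of Ndufa4 known to be induced by hypoxia, had 6.41 and 7.01% in Div8pos cells and 9.69 and 7.59% in Div0 cells over 15 CpGs more than 1000 bp from a start site. One exon CpG of Ndufa4l2, at chr10:126954091, was called, with 59.5 and 73.7% in Div8pos cells, against 100 and 84.2% in Div0 cells (-25.5 points, quasi-binomial adjusted p = 0.0431, and 0.0542 and not called with the host as a block), a call lost without any 1 of the 4 libraries. Ndufa8 had 28.3 and 31.8% in Div8pos cells and 34.0 and 24.1% in Div0 cells, with overlap between the groups. Of the 4 assembly factors tested, 1 was lower: Ndufaf4, with 88.5 and 86.0% in Div8pos cells, against 98.5 and 96.5% in Div0 cells, a call lost without Div0 of host 196 or Div8pos of host 197.

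In complex II, the iron-sulphur subunit Sdhb averaged 83.9 and 82.4% in the Div8pos libraries, against 96.2 and 96.2% in the Div0 libraries, a difference of -13.1 points (SE 1.15, limma adjusted p = 8.77e-06). All of these Div8pos values were under the Div0 values. With start sites drawn at 500 bp in place of 1000 bp, more CpGs entered the mean of Sdhb and its difference was -5.86 points, which was not called. The membrane anchor Sdhc differed by -8.05 points and was not called. Of the assembly factors, Sdhaf2 differed by -10.9 points, a call lost without Div8pos of host 197. Sdhaf1 stayed near the middle of the scale, at 56.0 and 53.3% in Div8pos cells and 53.8 and 57.7% in Div0 cells, with overlapping groups.

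In complex III, 2 of 3 subunits tested were lower, too few to set apart from the 37.9% of all genes. The Rieske iron-sulphur subunit Uqcrfs1 averaged 69.8 and 66.7% over 19 CpGs in Div8pos cells, against 89.5 and 88.2% in Div0 cells, a difference of -20.6 points (SE 1.17, limma adjusted p = 2.31e-06). The core subunit Uqcrc1 averaged 74.1 and 73.5% in Div8pos cells, against 87.0 and 89.7% in Div0 cells, a difference of -14.5 points (SE 0.961). In both genes the groups were far apart compared with the gap between hosts. Uqcrb, the third, differed by -3.13 points (limma adjusted p = 0.119).

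In complex IV, 3 of 7 genes of widespread isoforms and 1 of 3 tissue isoforms were lower, against 37.9% of all genes. Cox5a, a nuclear-encoded structural subunit, was partly methylated over its 3 CpGs: 5.09 and 8.32% in Div8pos cells, against 23.6 and 29.0% in Div0 cells, a difference of -19.6 points (SE 3.32, limma adjusted p = 0.000364). Cox4i1, the usual isoform of the regulatory subunit 4, differed by -10.0 points (SE 1.05) over 30 CpGs, and Cox6c by -10.1 points, and each of the calls was lost without 1 library (Cox4i1 without Div0 of host 196 or Div8pos of host 197, Cox6c without Div8pos of host 196 or Div0 of host 197). Cox4i2, the lung isoform of subunit 4, averaged 37.1 and 40.4% in Div8pos cells, against 50.2 and 49.3% in Div0 cells, without overlap, and was not called without Div8pos of host 196. Cox7c, with 125 CpGs outside start sites that reach as far as 1371399 bp from one, averaged 84.4 and 84.5% in Div8pos cells, against 92.2 and 92.7% in Div0 cells. Its difference of -8.01 points (SE 0.758, limma adjusted p = 1.21e-05) was under the size limit. Cox7b2, a testis isoform with 31 CpGs, differed by -5.30 points.

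In the ATP synthase, 5 of 12 genes tested were lower, against 37.9% of all genes. Atp5g2 averaged 74.0 and 82.0% over 8 CpGs in the Div8pos libraries, against 98.3 and 96.0% in the Div0 libraries, a difference of -19.1 points (SE 2.49, limma adjusted p = 6.80e-05). Atp5a1, the catalytic core's alpha subunit, averaged 77.8 and 79.2% in Div8pos cells, against 95.1 and 95.6% in Div0 cells, a difference of -16.9 points (SE 1.14). These groups did not overlap. The membrane-part genes Atp5l, Atp5g3 and Atp5k differed by -13.8, -10.5 and -10.4 points. Their calls were lost without Div0 of host 196, and those of Atp5l and Atp5k also without Div8pos of host 197. Atp5l and Atp5k rested on 3 CpGs each, 19163 to 19330 bp (Atp5l) and 1167 to 1339 bp (Atp5k) from the nearest start site. For all 3 CpGs of Atp5l that start site was not its own. The 22 CpGs of Atp5g3 lay 9890 to 91085 bp from the nearest start site. Atp5o, with the most CpGs of this complex, averaged 87.8 and 85.3% in Div8pos cells, against 96.3 and 95.2% in Div0 cells, a difference of -9.22 points, and was not called. Atp5h had 8.08 and 6.11% in Div8pos cells and 7.65 and 6.79% in Div0 cells over 17 CpGs outside start sites, with overlapping groups. Atp5sl, matched by its symbol and now named Dmac2, is known as a complex I assembly factor.

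**Figure D3:**
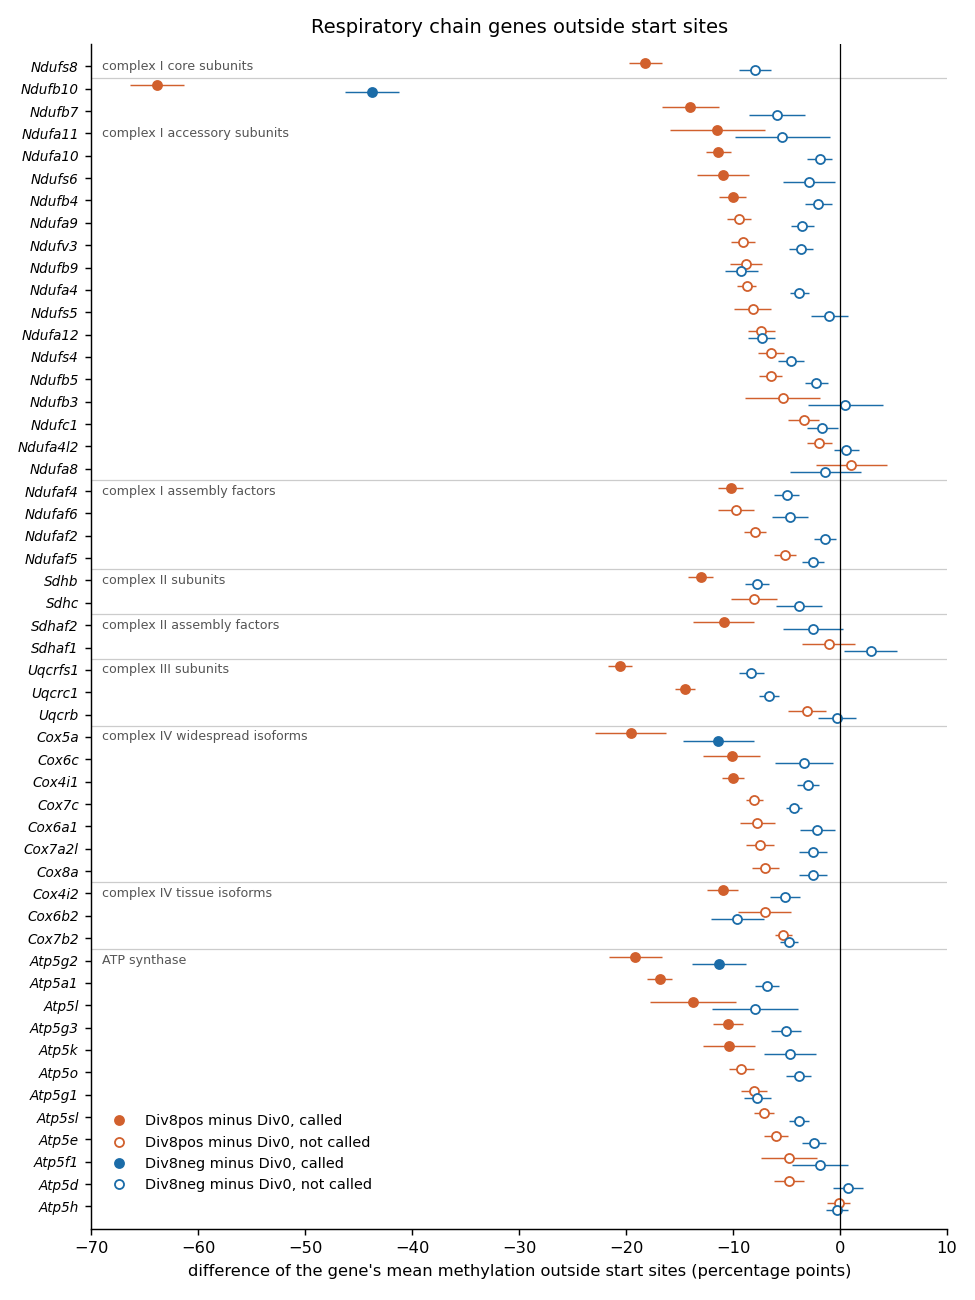
Difference in mean methylation outside start sites from Div0 in percentage points (horizontal axis) for 52 of the 53 respiratory chain genes (rows, by role), for Div8pos (orange) and Div8neg (blue), with bars of 1 standard error and filled symbols for called genes. For Div8pos, Ndufb10 stands at -63.8, the other called genes shown between -20.6 and -10.0, and the 31 genes not called between -9.71 and 1.03 points.

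At single CpGs, loss in Div8pos cells was spread thinly over the genes. Outside start sites 86 of 885 CpGs in 35 genes were lower in Div8pos than in Div0 cells, and none was higher (9.72%, against 9.38% lower and 0.0332% higher of all CpGs outside start sites). Of the CpGs with at least 20% methylation in Div0 cells, 86 of 823 were lower, against 10.8% of all. Without the Div0 library of host 197 the count was 32. Together with the 9 at start sites, 95 CpGs in 39 genes were lower, all of them in both hosts: 20 genes had 1 such CpG, 14 had 2 to 5 and 5 had 6 or more. Those 5 were Uqcrfs1 with 9 of its 19 CpGs, Cox7c with 8 of 144, Ndufb10 with 7 of 7, Ndufa10 with 6 of 50 and Ndufa4 with 6 of 72. Cox7c and Ndufa4 were also the members with the most CpGs. The median of the 95 CpGs was 92.1% in Div0, 89.0% in Div1, 88.6% in Div3, 86.2% in Div5, 77.2% in Div8neg and 63.6% in Div8pos cells. These CpGs were chosen for a Div8pos level at least 20 points under Div0. A high Div0 and a low Div8pos median therefore follow in part from the choice, as can a step down from Div0 to Div1. Over all 885 CpGs outside start sites the mean difference of Div1 from Div0 was -0.425 points. At 69 of the 95 the Div8pos level was still at least 50%, and at 9 it was under 20%, of which 6 were in Ndufb10.

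Of the 95 CpGs, 29 lay inside their gene (10 in exons, 19 in introns), with medians of 60.5% in Div8pos and 94.1% in Div0 cells. Another 34 lay outside the gene at 1 to 50 kb from a start site, and 23 lay beyond 50 kb. By position, 13.5% of the members' 215 CpGs inside the gene were lower (9.3% of all such CpGs), 8.74% at 1 to 50 kb (10.1% of all) and 8.19% beyond 50 kb (8.61% of all). Without Ndufb10 the share inside the gene was 22 of 208, or 10.6%.

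In Uqcrfs1 the CpG with the largest difference, at chr13:30686254, had 52.9 and 46.3% in the Div8pos libraries, against 95.8 and 88.3% in the Div0 libraries. In Uqcrc1 an intron CpG at chr9:108839673, 1011 bp from the start site, had 54.3 and 39.7% in Div8pos cells, 59.5 and 64.5% in Div8neg cells and 100 and 92.3% in Div0 cells. In Cox5a an intron CpG at chr9:57370218 had 6.94 and 8.51% in Div8pos cells, 22.2 and 29.6% in Div8neg cells and 52.0 and 51.0% in Div0 cells. Each of these 3 CpGs was lower in both Div8pos libraries than in any Div0 library. In Cox6a1 a CpG at chr5:115808105, upstream of the start site, had 26.7 and 36.4% in Div8pos cells, 62.5 and 72.9% in Div8neg cells and 81.8 and 80.9% in Div0 cells. Its difference from Div0 was -49.8 points. In Atp5g2, whose promoter is shown above, 3 intron CpGs between chr15:102494575 and chr15:102494622 differed by -38.6, -40.1 and -36.4 points. The start site nearest to these 3 is another gene's.

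**Figure D4:**
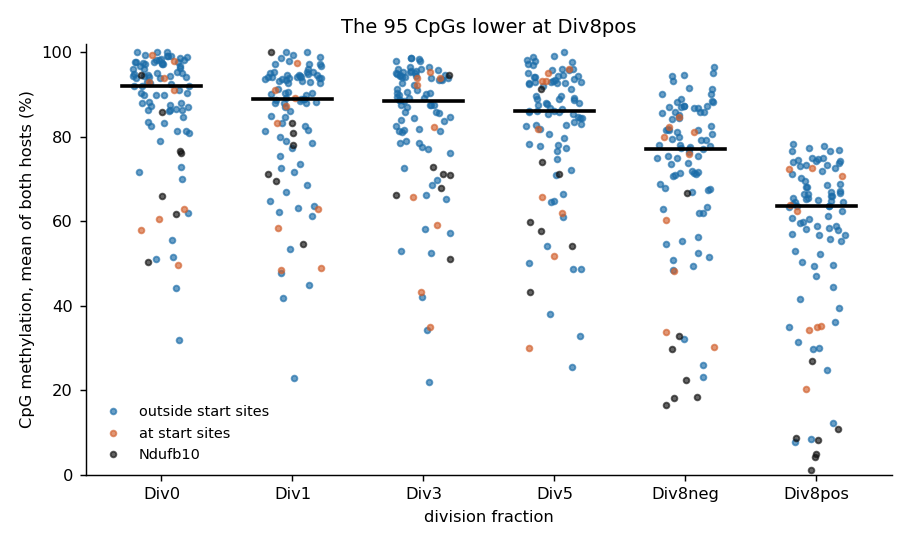
Methylation in percent, mean of both hosts (vertical axis), of the 95 respiratory chain CpGs called lower in Div8pos than in Div0 cells, through the 6 fractions (horizontal axis), with points for CpGs outside start sites (blue), at start sites (orange) and in Ndufb10 (black) and bars for the medians. The median was 92.1% in Div0, 77.2% in Div8neg and 63.6% in Div8pos cells.

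The steepest loss among the members was a short stretch of Ndufb10, which encodes an accessory subunit of the membrane arm of complex I. Its 7 CpGs outside start sites lie between chr17:24859678 and chr17:24859834 (mm9), 157 bp in all, 5 of them in an exon and 2 in an intron, 1499 to 1654 bp from the start site of the gene, which is on the minus strand. Their mean was 8.73 and 9.73% in the Div8pos libraries, 31.4 and 27.1% in the Div8neg libraries, 66.7 and 62.2% in the Div5 libraries and 74.2 and 72.0% in the Div0 libraries. The fractions did not overlap in any of these pairs. The difference of Div8pos from Div0, -63.8 points (SE 2.53, limma adjusted p = 6.43e-07), ranked 3rd lowest of all 15153 genes, and that of Div8neg, -43.8 points, ranked 2nd. All 7 CpGs were called lower for Div8pos against Div0. The exon CpG at chr17:24859708 had 11.1 and 10.4% in Div8pos cells, 37.5 and 21.9% in Div8neg cells and 91.3 and 80.6% in Div0 cells (Div8pos minus Div0 -75.2 points, quasi-binomial adjusted p = 7.36e-21). The 7 CpGs lie close together on few fragments and are not independent, and each rested on 11 to 96 reads per library.

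CpGs around this stretch were examined over 20 kb on either side. Of 69 such CpGs, 33 were at 20% or more in Div0 cells, and 4 of these were called lower in Div8pos cells, the nearest CpG being 1238 bp away. A pair of them lies in the neighbouring gene Rps2, a ribosomal protein gene: chr17:24858406 averaged 8.42% in Div8pos and 62.8% in Div0 cells, and chr17:24858440 22.7% in Div8pos and 89.6% in Div0 cells. The other 2 carry the symbols Tbl3 and Rpl3l. The second deposited table, pooled here over both hosts, adds a CpG of Ndufb10 at chr17:24859878. There 9.62% of 52 reads were methylated in Div8pos cells and 70.7% of 41 reads in Div0 cells. The same table also holds 9 CpGs of the Ndufb10 start site, 85 to 378 bp from it, at 0 to 15.2% in all fractions. The loss was therefore measured in the body of the gene, with the start site low throughout.

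**Figure D5:**
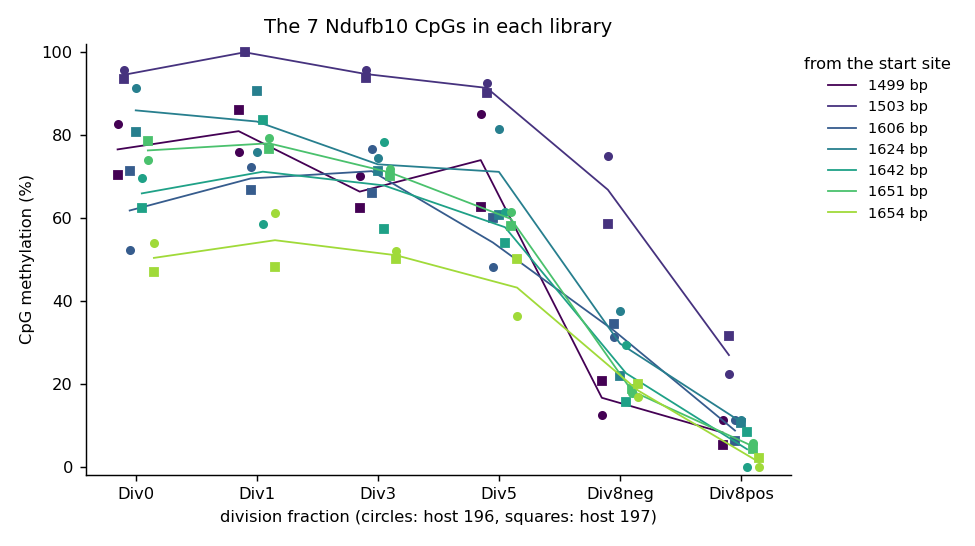
Methylation in percent (vertical axis) of the 7 Ndufb10 CpGs through the 6 fractions (horizontal axis), with circles for host 196, squares for host 197, lines through the means and colours for the distance of each CpG from the start site in bp. In Div8pos cells all 7 lie under their Div0 values, and their mean was 8.73 and 9.73% in the Div8pos libraries, against 74.2 and 72.0% in the Div0 libraries.

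In Div8neg cells, which had also divided at least 8 times but lacked CD138, the loss was smaller and few members passed. Outside start sites 3 of 53 genes were lower than in Div0 cells (5.66%, against 3.86% lower and 0.033% higher of all): Ndufb10, Cox5a and Atp5g2. Cox5a averaged 15.7 and 14.0% in the Div8neg libraries, against 23.6 and 29.0% in the Div0 libraries, a difference of -11.4 points (limma adjusted p = 0.0158) that was no longer called without the Div0 or the Div8neg library of host 197 (-8.69 and -10.6 points). Atp5g2 averaged 86.5 and 85.2% in Div8neg cells, against 98.3 and 96.0% in Div0 cells, a difference of -11.3 points (SE 2.49). In both genes the Div8neg libraries were under the Div0 libraries, as in 39 of the 53 genes tested. Over the whole table such genes were not counted. The median difference of the 53 genes was -3.83 points, against -4.11 over all genes. Without the Div8neg library of host 196 the fit called 6 genes, and without the Div0 library of host 197 it called 5.

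Outside start sites 17 CpGs in 9 genes were lower in Div8neg than in Div0 cells (1.92%, against 1.09% lower and 0.0565% higher of all), and 1 at a start site (0.162% lower and 0.00631% higher of all start-site CpGs), in Ndufc1. Of the 17, 6 were in Ndufb10 and 3 in Atp5g2, and without Ndufb10 the count was 11 of 878 (1.25%). Without the Div0 library of host 197 it was 3, and without the Div8neg library of host 197 it was 7. The Ndufc1 CpG at chr3:51212161, in an exon, had 35.3 and 32.5% in Div8neg cells, against 56.4 and 59.5% in Div0 cells. With the host as a block that call was lost (quasi-binomial adjusted p = 0.0502), as it was without any 1 of the 2 Div0 and 2 Div8neg libraries. Of the 95 CpGs lower in Div8pos cells, 15 were also lower in Div8neg cells, and 3 CpGs, in Cox7c, Ndufa12 and Ndufv3, were called for Div8neg alone.

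The Div8neg libraries stood apart at start sites of B lineage genes. Over 11 start-site CpGs of 4 of the 6 listed genes their level was 14.6 to 15.2%, against 1.43 to 9.81% in the other 10 libraries. Start-site CpGs of the listed plasma cell genes (70 CpGs) lay at 3.21 to 3.58% in Div8neg and 1.84 to 3.36% in the other libraries. Those of T cell genes (17 CpGs) lay at 68.5 to 69.8% in Div8neg and 65.5 to 78.3% in the others, and those of myeloid genes (14 CpGs) at 80.7 to 84.5% in Div8neg and 73.8 to 85.5% in the others. NK cell genes (5 CpGs) were at 90 to 93.9% in Div8neg and 89.0 to 98.5% in the others, and erythroid genes (8 CpGs) at 21.9 to 29.7% in Div8neg and 24.5 to 38.1% in the others. Their part in the Div8neg results was not tested. Fitted without the Div8neg libraries, 85 CpGs outside start sites were lower in Div8pos than in Div0 cells. Div8neg reads enter that comparison only through the dispersion, so the count cannot show what part the Div8neg cells play.

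Set against Div8neg cells, Div8pos cells had lost more. Of 53 genes, 4 were lower outside start sites (7.55%, against 5.94% lower and 0.0066% higher of all) and none was higher: Ndufb10, Uqcrfs1, Ndufs8 and Atp5a1. Uqcrfs1 averaged 69.8 and 66.7% in Div8pos cells, against 80.9 and 80.2% in Div8neg cells, a difference of -12.3 points (SE 1.17, limma adjusted p = 0.000187). Ndufs8 averaged 76.4 and 76.9% in Div8pos cells, against 85.1 and 88.7% in Div8neg cells, a difference of -10.3 points that was -8.43 and not called without the Div8neg library of host 197. For Atp5a1 the difference of -10.0 points (SE 1.14) was not called without Div8neg (-8.48) or without Div8pos (-9.32) of host 196. The Div8pos libraries were under the Div8neg libraries in all 4 genes, and so they were in 41 of the 53 genes tested. Over the whole table such genes were not counted. The median difference was -5.40 points, against -4.73 over all genes. Without the library of host 197 of either fraction the fit called 7 genes.

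At single CpGs, 9 in 5 genes were lower in Div8pos than in Div8neg cells outside start sites (1.02%, against 0.904% lower and 0.00908% higher of all): 3 in Uqcrfs1, 2 each in Ndufb10 and Ndufa10, and 1 each in Atp5g3 and Cox6a1. The Cox6a1 CpG was the one at chr5:115808105, with a difference of -36.2 points (quasi-binomial adjusted p = 0.00792), and it was not called without Div8pos of host 196 (adjusted p = 0.0932). None was called without the host 197 library of either fraction, and 5 were without Div8neg of host 196. No start-site CpG of the members was called (quasi-binomial test; 53 at an unadjusted p under 0.05, 0 by edgeR, against 0.1% lower and 0.00276% higher of all start-site CpGs).

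Through the earlier divisions the members stayed close to Div0. Outside start sites the mean difference from Div0 was -0.425 points in Div1, -0.604 in Div3 and -1.12 in Div5 cells. No gene was called in any of these 3 comparisons (limma; 2, 2 and 5 of 53 genes at an unadjusted p under 0.05), against 0, 0 and 0.238% lower and 0, 0 and 0.0066% higher of all genes. No CpG was called either (quasi-binomial test; 59, 57 and 77 of the 885 CpGs outside start sites at an unadjusted p under 0.05, and 0 by edgeR), against 0, 0.0389 and 0.174% lower and 0, 0.00158 and 0.0079% higher of all CpGs outside start sites. At start sites 0, 0.00315 and 0.0221% of all CpGs were lower and 0, 0.000394 and 0.000788% higher in these comparisons, and none of the members' CpGs was called (47, 49 and 43 at an unadjusted p under 0.05, 0 by edgeR). Differences near these means are below the size limits of both calls.

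Genes of the same pathway outside the symbol rule, a list of 52 assembly, cytochrome c, ubiquinone and mitochondrial biogenesis genes, also lost methylation outside start sites. Of 39 tested there, 10 were lower in Div8pos than in Div0 cells and none was higher (25.6%, against 37.9% of all genes and 41.5% of the members; 10 to 15 when 1 library was left out), with a median difference of -8.51 points, against -8.89 over all genes. The difference between the lists was not tested. Cox17, a copper chaperone for complex IV, averaged 66.0 and 59.3% in the Div8pos libraries, against 92.9 and 88.5% in the Div0 libraries, a difference of -28.1 points (SE 2.07). Polg, the mitochondrial DNA polymerase, averaged 79.3 and 75.0% in Div8pos cells, against 92.1 and 93.9% in Div0 cells. Neither gene's groups overlapped. The ubiquinone synthesis genes Coq7 and Coq2, the copper chaperone Sco1, the mitochondrial transcription factor Tfam, the complex III assembly factor Lyrm7, the mitochondrial RNA-binding protein gene Lrpprc, the transcription factor Gabpa and the haem A synthesis gene Cox10 differed by -13.2 to -10.4 points. Cox17 was also the 1 gene of 42 called at start sites (2.38%, against 3.34% of all genes), with 9.06 and 9.36% over 14 CpGs in Div8pos cells, against 25.3 and 23.4% in Div0 cells. With start sites drawn at 500 bp its start-site difference was -1.50 points and not called. In Div8neg cells 2 of the 39, Cox17 (-12.0 points) and Polg (-13.1 points), were lower than in Div0 cells (5.13%, against 3.86% of all genes). Cox17 was the 1 gene of 39 lower in Div8pos than in Div8neg cells (-16.1 points; 2.56%, against 5.94% of all genes), and this count was 3 without either Div8neg library and 4 without the Div8pos library of host 197.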

How the data were processed

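All tests used the deposited table of methylated and unmethylated read counts per CpG and library, as its headers name them, and the authors' methylation fraction beside them, which equalled methylated over all reads to within 5.55e-16. Every CpG had at least 10 reads in each library. A further deposited table gives methylated and unmethylated read counts per library for 1639598 CpGs and was used only where named. Its reads were pooled over both hosts for each fraction of cells. The submitters' processing notes name Bismark, Bowtie2 and the build mm9. Versions of both tools are not given there. Symbols, distances to start sites and gene features are those of the files, and a CpG takes its symbol from the nearest transcript, however far away. A symbol was missing at 65090 CpGs. Bisulfite reads carry no molecular identifiers, so counts include PCR copies and their error covers counting alone.

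CpGs were tested with a quasi-binomial model of the counts over all 12 libraries, with the fraction as factor and the dispersion moderated by limma's squeezeVar and not taken below 1 (call: Benjamini-Hochberg adjusted p under 0.05 over all 760348 CpGs and at least 20 points between means of the 2 hosts). Genes with at least 5 CpGs were tested with limma on the mean percent of at least 3 CpGs, separately outside and at start sites (call: adjusted p under 0.05 and at least 10 points). The tests were checked on simulated data. R 4.3.3, limma 3.58.1 and edgeR 4.0.16 were used. Same-numbered hosts are the same animal per the labels. The deviations of same-numbered libraries from the fraction means, over 246500 CpGs, correlated between -0.00777 and 0.0194 in the 15 pairs of fractions, and a fit with the host as a block was an alternative. Genes named are those with a call or a called CpG, a methylated start site, or the most CpGs of their role. Some genes are described for having no call. The members, the lists and the tests were chosen with earlier results of these data known. Alternatives tried were other read, size and distance limits, edgeR, summed reads, the host block and leaving out each library. Some genes that met this rule are not reported here.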

Additional observations from a re-analysis of the deposited data

How the results depend on the processing

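No result changed direction. Single CpGs rest on as few as 10 reads in a library. Among CpGs with at least 20 reads in every library the counts outside start sites were 25 for Div8pos against Div0, 9 for Div8neg against Div0 and 5 for Div8pos against Div8neg, 4 start-site CpGs were lower for Div8pos against Div0, and 9 genes outside and 1 gene at start sites were lower in that comparison. By edgeR 11 CpGs outside start sites were lower for Div8neg against Div0, 0 at start sites, and 1 outside for Div8pos against Div8neg. A size limit of 10 points gave 199 CpGs outside and 14 at start sites for Div8pos against Div0 and 2 at start sites for Div8neg against Div0. With start sites drawn at 500 bp, 0 start-site CpGs were lower for either fraction against Div0, and with the authors' promoter class 5 were for Div8pos and 0 for Div8neg. With no size limit, 46 genes outside start sites passed for Div8pos and 26 for Div8neg against Div0 (49.1%, against 64.2% of all genes), 35 for Div8pos against Div8neg (66.0%, against 72.5% of all), and at start sites 4 for Div8pos against Div0 and 1 for Div8pos against Div8neg. By reads summed over a gene, 1 gene at start sites was lower for Div8pos against Div0. The limit of 20 reads takes CpGs out before the test, so its smaller counts do not show how many calls were lost. Shares over all CpGs or genes were counted only where given, here and for the left-out libraries and the host block below. Where they are not given, the members cannot be set against the whole table. The cause of these changes was not tested.

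Leaving out 1 library at a time, the CpG counts outside start sites ranged from 32 to 86 for Div8pos against Div0, from 3 to 14 for Div8neg against Div0 and from 0 to 8 for Div8pos against Div8neg, and at start sites from 2 to 8 and from 0 to 1 for the first 2 comparisons. The gene counts outside start sites ranged from 15 to 22, from 2 to 6 and from 3 to 7. The mean difference outside start sites was -10.2 points for Div8pos against Div0, -4.94 for Div8neg against Div0 and -5.24 for Div8pos against Div8neg when all reads were summed, -10.6, -5.36 and -5.29 when each gene counted once, and -8.83, -3.98 and -4.85 without Ndufb10. With at least 20 reads it was -4.80 for Div8pos against Div8neg, and at start sites it was -0.980 for Div8pos against Div0 from summed reads. Single gene calls for Div8pos against Div0 were lost for Atp5k, Cox6c, Sdhb and Polg with start sites at 500 bp, for Atp5g3, Ndufa10 and Cox10 within 50 kb, and for Cox4i1, Cox4i2, Cox6c, Ndufaf4 and Sdhaf2 from summed reads.

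With the host as a block, which pairs libraries of the same animal, 81 CpGs outside start sites were lower for Div8pos against Div0 and 15 for Div8neg against Div0. The start-site count for Div8neg against Div0 was 0 under the block. Single CpGs lost their call in Ndufa4l2 for Div8pos against Div0, in Cox5a and Ndufc1 for Div8neg against Div0 and in Ndufb10 for Div8pos against Div8neg. The block changed no other call of those described here.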
